A study of Mus musculus with 6 samples.

Results

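The regions described here are 2254 stretches of the mouse genome in which myoblasts carried a run of ubiquitylated histone H2B (H2Bub) peaks and the myotube peak list held no peak at all. Myoblast peaks on chromosomes 1 to 19 and X were joined wherever the gap between them was at most 3000 bp. This gave 19877 stretches, of which 4672 were at least 10000 bp and under 50000 bp long. Of those, 2418 overlapped at least 1 myotube peak and 2254 overlapped none. The 2254 are called the members below, and the 2418 the stretches with a myotube peak. The values that chose the members are the myoblast peaks and the lack of myotube peaks, so the difference between the groups over them is described and not tested.

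The mark was profiled by ChIP-seq (sequencing of immunoprecipitated chromatin) in the mouse cell line C2C12, whose myoblasts fuse into multinucleate myotubes when serum is reduced. The myotube libraries (MT, 3 replicates) came from cells differentiated for 96 h in 2% horse serum, after growth to full confluence. The myoblast libraries (MB, 3 replicates) came from growing cells in 10% fetal bovine serum at about 40% confluency. All 6 libraries used chromatin digested with micrococcal nuclease (MNase) and the same antibody clone, but each library has a lot number of its own, so lot and library cannot be told apart. The line is written C2C12 in the cell type label and C1C12 elsewhere. The labels do not say that replicates were separate cultures, so spreads and p-values measure only the variation between these libraries, which may be technical. On chromosomes 1 to 19 and X the MT libraries held 8759266 to 14467774 reads and the MB libraries 9285330 to 15891204. MT replicate 2 stood apart from the other MT libraries, with the lowest summed density over the flanks and 86.8% of its reads outside peaks, against 83.1% and 83.2% in MT replicates 1 and 3. No RNA was measured, so the cell identities could not be checked against marker genes. Coordinates are on build mm9. The gene tables at hand are on another build, so no gene is assigned to a member and no sequence is printed.

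H2Bub is a single ubiquitin attached to histone H2B by the RNF20 and RNF40 ligase as RNA polymerase II travels through a gene, and it is taken off again by deubiquitinating enzymes of the USP family. The mark therefore lies over the bodies of transcribed genes and is generally absent from silent sequence. A run of closely spaced H2Bub peaks is the form the mark takes over a transcribed gene.

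The members were short, sparse runs among the myoblast stretches of their length class. Their lengths had a median of 15910 bp (lower and upper quartile 12340 and 22170 bp), and a member held a median of 16 myoblast peaks that covered 47.2% of it. The stretches with a myotube peak had a median length of 23020 bp, 23 myoblast peaks and 59.0% cover. Membership fell with length. Of the stretches of 10 to 15 kb, 66.2% (1024 of 1547) lacked a myotube peak, against 53.9% at 15 to 20 kb, 38.4% at 20 to 30 kb and 26.9% (271 of 1007) at 30 to 50 kb. A longer stretch has more sequence in which a myotube peak can fall, and the part of this in the trend was not tested.

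At equal length the members were also the less densely marked stretches in myoblasts. Densities are given as RPKM, the reads per kb scaled to the same total of reads on chromosomes 1 to 19 and X in every library. Among stretches of 10 to 15 kb, the median MB density was 1.57 RPKM in members and 1.77 RPKM in stretches with a myotube peak. At 30 to 50 kb the same medians were 2.00 and 2.49 RPKM. Myoblast peak cover at 30 to 50 kb was 53.1% in members and 62.2% in the stretches with a myotube peak. These comparisons use myoblast values alone, but myoblast and myotube densities are related across stretches, so they are descriptions.

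At the lower length limit the member just inside was denser in both groups than the stretch just outside, and at the upper limit the densities were closer. The shortest member, at chr4:22285996-22296003 (10008 bp), had 0.593 ± 0.0379 RPKM in MT and 1.69 ± 0.245 RPKM in MB (SD, n = 3). The longest stretch under 10000 bp without a myotube peak, at chr14:87058133-87068130 (9998 bp), had 0.413 ± 0.0678 RPKM in MT and 1.25 ± 0.212 RPKM in MB. The longest member, at chr7:144441303-144491241 (49939 bp), had 0.419 ± 0.0589 RPKM in MT and 1.47 ± 0.221 RPKM in MB. The shortest stretch above the class without a myotube peak, at chr16:52386333-52436455 (50123 bp), had 0.503 ± 0.0523 RPKM in MT and 1.502 ± 0.230 RPKM in MB. The members just inside and the stretches just outside thus had log2 MT over MB values of -1.51, -1.59, -1.81 and -1.58 in this order.

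In myotubes, density over the members was close to that of the sequence beside them, and in myoblasts it was several times higher. The median member density by library was 0.587, 0.501 and 0.583 RPKM in MT replicates 1 to 3, against 1.66, 1.87 and 1.59 RPKM in MB replicates 1 to 3. In the flanks, taken as the sequence 1 to 20 kb from each edge and at least 500 bp from any peak of either list, the medians were 0.440, 0.422 and 0.452 RPKM in MT and 0.476, 0.505 and 0.510 RPKM in MB. Every MT library had a lower median over the members than every MB library. Whether fewer cells carried the mark or each cell carried less of it cannot be told apart in such bulk libraries. Reads more than 1000 bp from any peak made up 83.05% to 86.83% of the MT libraries and 48.85% to 57.27% of the MB libraries. A weaker enrichment by the immunoprecipitation in MT was not tested, and without input or spike-in it cannot be told apart from less mark. The members together held 2.35% ± 0.213 of MT reads and 8.05% ± 0.758 of MB reads (SD, n = 3).

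**Figure D1:**
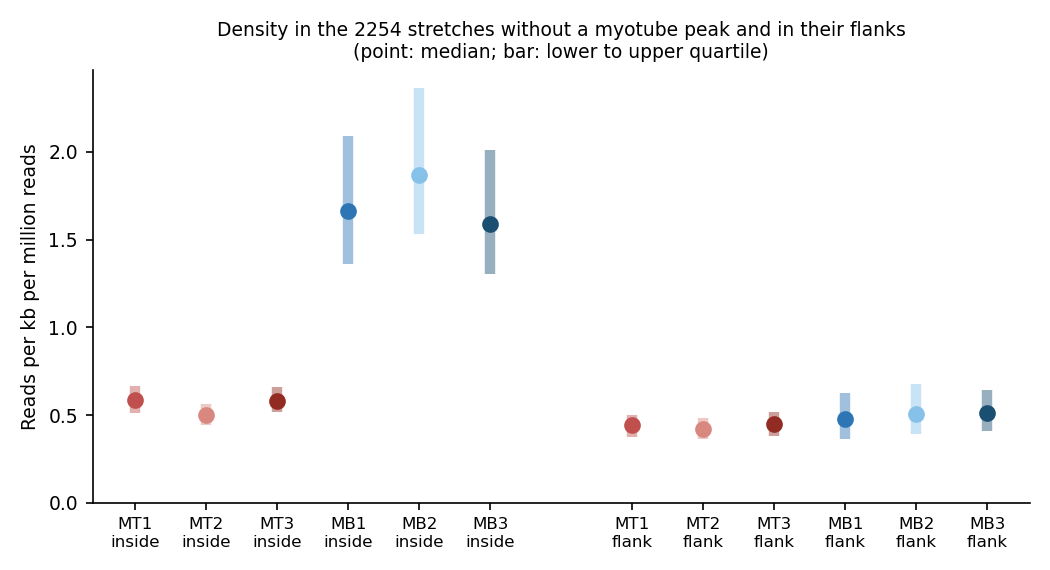
Median read density (RPKM, vertical axis) with the lower to upper quartile as a bar, over the 2254 members (left) and their flanks (right), for 3 MT libraries and 3 MB libraries. The MT medians inside the members lie between 0.501 and 0.587 RPKM and the MB medians between 1.59 and 1.87 RPKM. With scaling to total reads, the flank medians of all 6 libraries lie between 0.422 and 0.510 RPKM. The medians of peak-free 10 kb windows were 0.377 to 0.400 RPKM in MT and 0.181 to 0.233 RPKM in MB, so the flanks are not a common background.

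Across members the log2 ratio of MT to MB density ran from -3.03 to -0.54, with a median of -1.64 and quartiles of -1.97 and -1.34. In 2251 of the 2254 members all 3 MT libraries lay below all 3 MB libraries. This held for 96.1% of all myoblast stretches of 2 kb or more and for 1.09% of 10 kb windows without any peak, and since the rule used this contrast nothing is read from the count. Scaling each library by its reads outside peaks in place of its total gave a median of -2.305, and all 3 MT libraries then lay below all 3 MB libraries in 99.6% of stretches of 2 kb or more and in 6.38% of the windows. Longer members had somewhat lower ratios, with medians of -1.52 at 10 to 15 kb and -1.90 at 30 to 50 kb (Spearman's rho -0.30 over 2254 members, which share the 6 libraries).

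The 3 members in which the groups overlapped were singled out after their values were seen. All 3 were on chromosomes 10 and 15. The member at chr10:60282738-60293244, had 0.478, 0.546 and 0.849 RPKM in MT and 0.799, 1.20 and 1.55 RPKM in MB. The member at chr15:75881193-75899275, had 0.707, 0.724 and 0.879 RPKM in MT and 0.864, 1.23 and 1.60 RPKM in MB. The third, at chr15:27716415-27728704, had 0.892, 0.625 and 0.967 RPKM in MT and 0.955, 1.30 and 1.37 RPKM in MB. In each of them MT replicate 3 was the highest MT library and MB replicate 1 the lowest MB library.

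The members with the lowest ratio were densely covered in myoblasts. MB density is part of the ratio that ranked them, so the ranking itself favours such members. The lowest was at chr18:56868831-56912329 (43.5 kb, 42 myoblast peaks covering 72.6%), with 0.383, 0.435 and 0.496 RPKM in MT and 3.25, 3.82 and 3.65 RPKM in MB (log2 ratio -3.03). Its MT density was 0.918, 1.01 and 1.16 times that of its flanks, while its MB density was 10.8, 11.1 and 8.99 times theirs. A member of 10.4 kb at chr5:33362241-33372684, had a similar pattern, with 0.992, 1.04 and 1.13 times its flanks in MT and 12.7, 15.4 and 8.66 times in MB (log2 ratio -2.97). In both, the 3 MT libraries lay on either side of the level of the flanks.

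The other members of this group of 5 were not all at the level of their flanks in myotubes. The member at chr9:53345873-53359617, had 0.338 ± 0.0377 RPKM in MT and 2.67 ± 0.586 RPKM in MB (SD, n = 3; log2 ratio -2.98). The member at chr6:83864943-83906530, had 0.536 ± 0.0927 RPKM in MT and 4.15 ± 0.919 RPKM in MB (log2 ratio -2.95). The member at chr2:23392935-23427138, had 0.492 ± 0.0350 RPKM in MT and 3.83 ± 0.887 RPKM in MB (log2 ratio -2.96). The chromosome 2 member had 2.16, 2.38 and 2.49 times its flank density in the 3 MT libraries, against 15.5, 18.7 and 13.8 times in the 3 MB libraries. Its flanks were sparse, with 0.2115 ± 0.0292 RPKM in MT against a mean of library medians of 0.438 ± 0.015 RPKM over all members. When 1 kb bins without a read in any library were left out, its pooled MT ratio went from 2.355 to 1.972.

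The members with the highest ratio were thinly covered in myoblasts. The highest was at chr1:134341778-134353148 (11.4 kb, 7 myoblast peaks covering 18.4%), with 0.773, 0.818 and 0.638 RPKM in MT and 1.08, 1.07 and 1.09 RPKM in MB (log2 ratio -0.54). The next were at chr15:27716415-27728704 (-0.54), chr10:42545710-42556683 (-0.63), chr3:69166287-69178166 (-0.64), and chr8:18746899-18761388 (-0.64). Myoblast peaks covered 18.4% to 39.3% of these 5 members, against 63.9% to 75.1% of the 5 with the lowest ratio. MB density is part of the ratio, so this contrast is not independent of the ranking.

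The 5 members with the highest MB density averaged 4.33 to 4.49 RPKM in myoblasts. The first, at chr8:87931085-87955740 (24.7 kb), had 0.746, 0.571 and 0.634 RPKM in MT and 4.82, 5.15 and 3.49 RPKM in MB. The second, at chr11:102025479-102046103, had 0.880, 0.540 and 0.865 RPKM in MT and 4.34, 4.89 and 4.22 RPKM in MB. The member at chr4:48262643-48291871 (29.2 kb), had the widest spread in myotubes, with 0.961, 0.396 and 0.936 RPKM in MT and 4.78, 4.98 and 3.24 RPKM in MB. In the chromosome 11 and chromosome 4 members MT replicate 2 lay well under the other MT libraries. The remaining members of this group were at chr5:29896945-29917484, and chr6:113555305-113567408, with log2 ratios of -2.92 and -2.68.

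Although no myotube peak lay in the members, myotube reads were denser there than beside them. Summed over the 2252 members with at least 5 kb of flank, density in the members was 1.35, 1.19 and 1.30 times the flank density in MT replicates 1 to 3, a mean of 1.28 ± 0.0831 (SD, n = 3). In MB the ratios were 3.87, 4.10 and 3.42, a mean of 3.8 ± 0.347. The flank level itself differed between the groups. Relative to the median of peak-free 10 kb windows, peak-free sequence 1 to 20 kb outside averaged 1.07 to 1.16 in MT and 2.13 to 3.02 in MB. Without MT replicate 2 the MT mean was 1.32. Members hold no myotube peak and flanks hold no peak of either list, so both sides of the ratio are selected, and their part in its level was not tested.

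In 1569 members (69.7%) all 3 MT libraries were above the flank. This is near the 65.9% of all myoblast stretches of 2 kb or more and below the 80.4% of stretches with a myotube peak, so it is not particular to the members. Of 10 kb windows without peaks, 30.1% met it. All 3 were below the flank in 42 members (1.87%), against 24.1% of the windows. The windows are shorter than the members and hold fewer reads, so their shares are more affected by counting error. Only 66 of 2252 members had more than 2 times the flank density in all 3 MT libraries, whereas 1752 did so in all 3 MB libraries. Of 2416 stretches with a myotube peak, 84 did so in MT and 2112 in MB. The low MT count was thus not particular to the members.

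Myotube density relative to the flank was higher in members with more H2Bub in myoblasts. Members were put in 4 equal groups of 563 by their MB density over the flank. In the lowest group, with a median MB ratio of 1.83, the summed MT ratio was 1.17, 1.11 and 1.16 in the 3 libraries. In the highest group, with a median MB ratio of 6.36, it was 1.56, 1.28 and 1.49. The share of members above the flank in all 3 MT libraries was 56.3%, 65.7%, 71.9% and 84.7% from the lowest group to the highest. Across 2252 members Spearman's rho between the MB and MT ratios was 0.42, a description over members that share libraries, flanks and the ease with which reads are placed.

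The order of members was far more stable between MB libraries than between MT libraries. Spearman's rho between pairs of libraries, over the member to flank ratios of 2252 members, was 0.94 to 0.96 in MB and 0.49 to 0.64 in MT. The lowest values were the 2 pairs with MT replicate 2 (0.49 and 0.51). A member held a median of 75 to 136 reads in an MT library and 252 to 422.5 reads in an MB library, so the order in myotubes rests on fewer reads.

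The members with the extreme MT ratios had unusual flanks in most cases. The 3 highest were at chr3:66834328-66845209, chr1:179114126-179136672, and chr3:98216254-98229368, with pooled MT ratios of 9.14, 6.43 and 6.03. Their MB ratios were much the same, at 8.59, 5.49 and 6.64. Their flanks held only 0.0612 to 0.0853 RPKM in MT and 0.196 to 0.315 RPKM in MB. When 1 kb bins without a read in any library were left out, the MT ratios came to 5.90, 3.92 and 4.16. The lowest ratio, 0.0850 in MT and 0.696 in MB, was at chr11:3103815-3125418, where the flanks held 7.24 ± 0.538 RPKM in MT and 4.10 ± 0.4995 RPKM in MB, many times the usual flank level. chr17:56603271-56613927, and chr4:54998974-55011296, followed, with MT ratios of 0.676 and 0.710 and MB ratios of 2.92 and 1.504. The chromosome 17 member rested on 26, 13 and 74 MT reads and on 60, 135 and 285 MB reads, and its density spread widely within both groups, from 0.132 to 0.480 RPKM in MT and from 0.606 to 1.68 RPKM in MB.

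Within the members, the myotube excess lay at the positions of the myoblast peaks, and the gaps between them were at the flank level. Summed density in myoblast peaks was 1.68, 1.46 and 1.62 times the flank in MT replicates 1 to 3, against 5.84, 6.21 and 5.13 times in the 3 MB libraries. In the gaps between peaks it was 1.02, 0.926 and 0.991 times the flank in MT, against 1.99, 2.08 and 1.78 times in MB. The MT libraries lay on either side of the flank level in the gaps, and the MB libraries were all well above it.

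Peaks over gaps inside the members gave 1.65, 1.58 and 1.64 in MT, a mean of 1.62 ± 0.0393 (SD, n = 3), and 2.94, 2.98 and 2.88 in MB, a mean of 2.93 ± 0.0536. MT replicate 2 was closer to the other MT libraries in this measure than in the ratio to the flank. Myoblast peaks were denser than the gaps in all 3 MT libraries in 2028 members (90.0%), against 94% of all myoblast stretches of 10 kb or more. Leaving out 1 kb bins without reads gave 1.62 in MT and 2.92 in MB. The part of read placement at finer scale was not tested, since neither input libraries nor a genome of this build were used here.

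**Figure D2:**
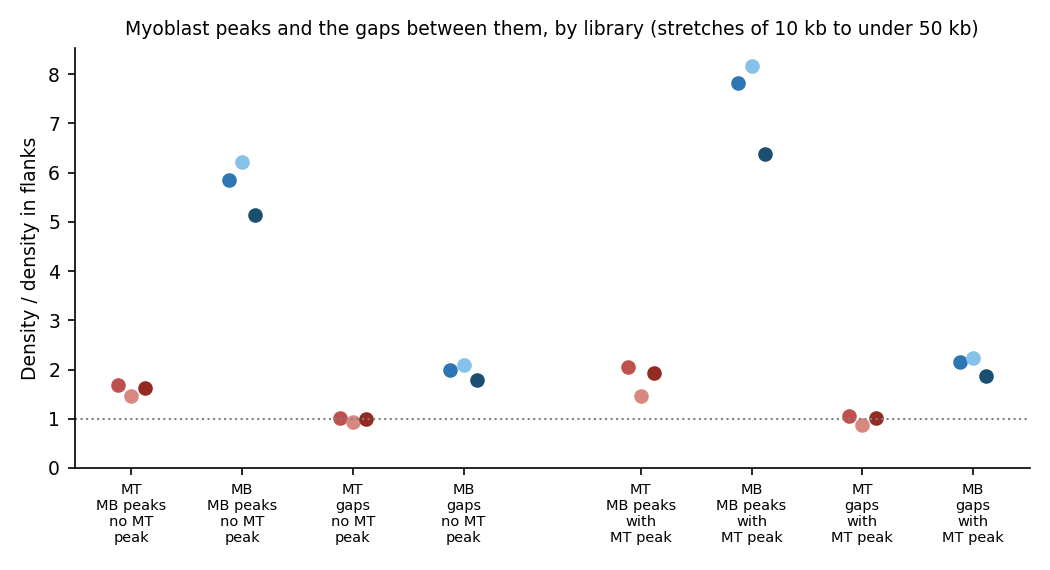
Density in myoblast peaks and in the gaps between them, divided by the density in the flanks (vertical axis), for each MT and MB library as a point, in the 2252 members and in the 2416 stretches with a myotube peak that had enough flank. The dotted line marks the level of the flanks. In the members the MT points for peaks lie between 1.46 and 1.68 and those for gaps between 0.926 and 1.02.

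The stretches with a myotube peak showed the same pattern at higher values, except in MT replicate 2. There the density over the flank was 1.64, 1.22 and 1.55 in the 3 MT libraries and 5.49, 5.72 and 4.52 in the 3 MB libraries. With the myotube peaks and 500 bp around them taken out, the MT values were 1.51, 1.18 and 1.43. Members had 1.35, 1.19 and 1.30 in the same libraries. In MT replicate 2 the members thus had no less density over the flank than the other stretches outside their myotube peaks. In MT replicates 1 and 3 they had less. The members were lower in all 3 MB libraries. At matched length the MT ratio was 1.28 in members and 1.41 in stretches with a myotube peak at 10 to 15 kb, and 1.26 against 1.45 at 30 to 50 kb (medians over stretches, pooled MT reads). The rule separates these sets by myotube peaks, so the myotube values carry no test.

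In myoblasts the peak-free sequence around the members stayed above the background level out to 50 kb, and in myotubes it was near that level. Density was followed from 50 kb outside the edge to 5 kb inside, outside parts being taken without peaks, and divided by the median of peak-free 10 kb windows in the same library. In the last 1 kb outside the edge it was 1.07 ± 0.108 in MT and 3.52 ± 0.696 in MB (SD, n = 3). Between 5 and 7.5 kb outside it was 1.13 ± 0.0687 in MT and 2.42 ± 0.400 in MB. Between 40 and 50 kb outside it was still 1.84 ± 0.249 in MB, against 1.13 ± 0.0629 in MT. Around the stretches with a myotube peak it was 1.85 ± 0.231 in MB and 1.19 ± 0.0737 in MT there, so this was not particular to the members. The outside parts also lie among other myoblast stretches, which 75.9% of members had within 10 kb. The part of these neighbours in the raised MB density was not tested.

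Inside the edge, the first 250 bp had 1.80 ± 0.200 in MT and 10.0 ± 2.13 in MB, since each edge is the boundary of a myoblast peak. From 500 bp inward the MT density was nearly level, at 1.46 ± 0.176 between 500 and 1000 bp and 1.45 ± 0.172 between 4 and 5 kb. Over the same distance the MB density went up, at 7.55 ± 1.68 and 9.10 ± 2.16. By library, MT had 1.57, 1.26 and 1.55 between 500 and 1000 bp and 1.57, 1.26 and 1.54 between 4 and 5 kb, and MB had 6.80, 9.48 and 6.37 and then 8.21, 11.6 and 7.53. Each of the 3 MB libraries was thus denser toward the interior, and each MT library was nearly level.

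**Figure D3:**
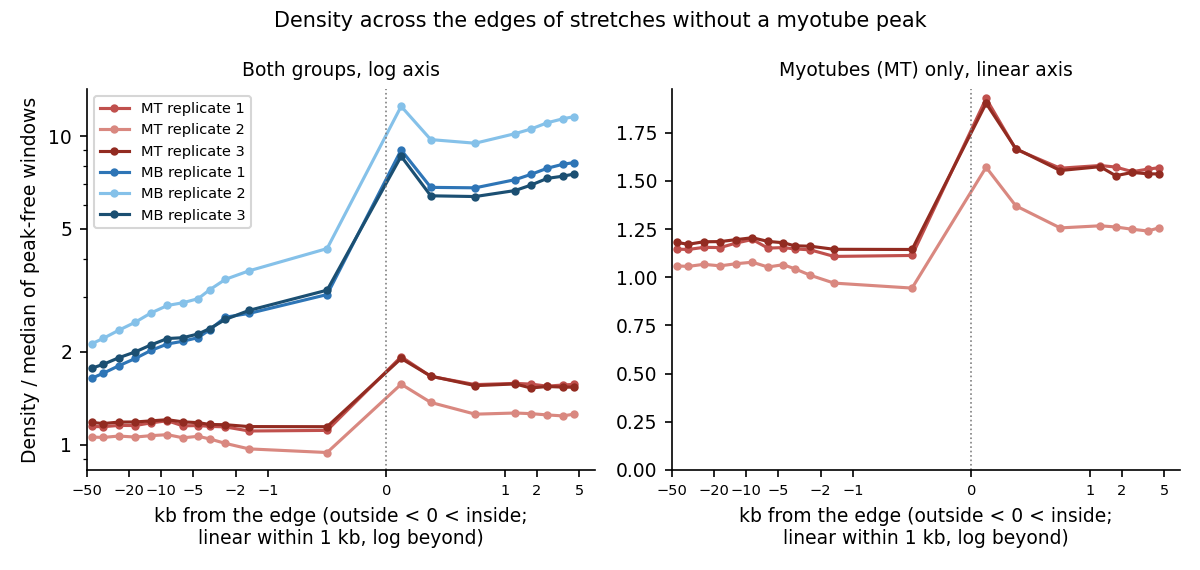
Read density of each library, divided by the median of peak-free 10 kb windows of that library (vertical axis; all 6 libraries on a log scale on the left, the 3 MT libraries on a linear scale on the right), against the distance from the edge of the members in kb (negative outside, positive inside). MB density declines outward over the whole 50 kb and MT density is level outside, with means of 1.07 to 1.16 in every bin up to the edge, and rises to 1.80 in the first 250 bp inside.

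The distance to the nearest myotube peak had a median of 35130 bp (quartiles 14120 and 89330 bp). Of the members, 188 (8.34%) had a myotube peak within 5 kb of an edge and 35 within 1 kb, while 22.4% had none within 100 kb. Most members had other myoblast stretches close by, with a median distance of 4881 bp to the next and 75.9% within 10 kb. For the stretches with a myotube peak these values were 4978 bp and 73.4%. The 2 sets thus had neighbouring myoblast stretches at similar distances.

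The members were unevenly spread over the chromosomes. Of the stretches of 10 kb to under 50 kb, 72.9% (70 of 96) on chromosome X, 69.4% (129 of 186) on chromosome 7 and 69.1% (168 of 243) on chromosome 9 lacked a myotube peak. Only 27.0% (69 of 256) on chromosome 10 and 24.9% (55 of 221) on chromosome 15 lacked one. The other 15 chromosomes lay between 44.5% and 53.7%. These are counts from a single peak list per group, with no replicate error.

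The level of myotube reads in the flanks differed between the same chromosomes. The median flank density in MT was 0.360 ± 0.0240 RPKM on chromosome 7 and 0.377 ± 0.0169 on chromosome 9, but 0.511 ± 0.0215 on chromosome 10 and 0.559 ± 0.0261 on chromosome 15 (SD, n = 3). In MB the same flanks had 0.440 ± 0.0404, 0.472 ± 0.0174, 0.490 ± 0.0399 and 0.507 ± 0.0513 RPKM. Chromosome X, with 0.419 ± 0.00697 RPKM in MT, and chromosome 18, with 0.397 ± 0.0142 RPKM, were low as well, yet on chromosome 18 only 44.8% of the stretches lacked a myotube peak. Pearson's r between the share and the MT flank density was -0.82 over 20 chromosomes (Spearman's rho -0.49). With the MB flank density r was -0.50, and with the level of peak-free 10 kb windows in MB it was -0.74, so the relation was not particular to myotube reads. With the MT flank density it was 0.20 over the 15 chromosomes left after chromosomes 7, 9, 10, 15 and X were taken out, so it rests on those 5, which were picked after their values were seen. The part of flank level in the lack of myotube peaks was not tested.

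**Figure D4:**
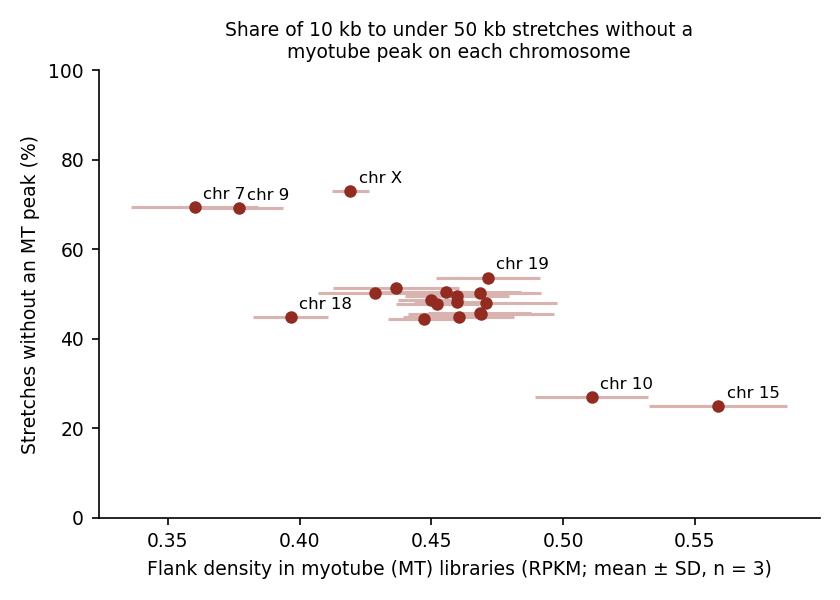
Percentage of stretches of 10 kb to under 50 kb without a myotube peak (vertical axis) against the median density of their flanks in MT libraries (horizontal axis, RPKM; point and bar are the mean and SD of 3 libraries), with 1 point per chromosome. Chromosomes 7, 9 and X lie at 69.1% to 72.9%, chromosomes 10 and 15 at 27.0% and 24.9%, and the other 15 between 44.5% and 53.7%.

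Relative to the flank, the members of these chromosomes were much alike in myotubes. The median MT density over the flank was 1.29 on chromosome 7, 1.28 on chromosome 9, 1.25 on chromosome 10, 1.25 on chromosome 15 and 1.30 on chromosome X. In MB it was 4.08, 3.75, 2.95, 2.69 and 3.73 on these 5 chromosomes. The median log2 ratio of MT to MB was -1.97 on chromosome 7 and -1.92 on chromosome 9, against -1.34 on chromosome 10 and -1.24 on chromosome 15. On chromosome X it was -1.666, within the -1.733 to -1.477 of the other 15 chromosomes. The members that remain on chromosomes 10 and 15 thus had lower MB density over the flank than those on chromosomes 7, 9 and X. The chromosome 10 value was close to those of chromosomes 14 and 13 (2.995 and 3.005), where 44.8% and 47.7% of the stretches lacked a myotube peak.

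The division of reads along a stretch was compared next. The rule does not use the sides of a stretch, but by leaving out any myotube peak it limits how uneven the myotube reads of a member can be. The p-values for members are therefore not independent of how the members were chosen, and they describe the size of a difference against the spread between libraries. Each of the 5326 myoblast stretches of 10 kb or more was split at its middle, and the log2 ratio of reads on the left side to reads on the right was compared between MT and MB with limma (moderated two-sided test, Benjamini-Hochberg adjustment over all 5326). The ratio of all reads was called different between MT and MB in 527 of the 2254 members (23.4%), against a background of 35.7% of all stretches tested. Stretches with a myotube peak had 918 of 2418 called (38.0%); they hold more reads. Relative to MB the balance lay further to the left in MT in 266 members and further to the right in 261. Without MT replicate 3, the deepest MT library, 324 members were called. The test counts reads at the flank level too, and density in the members was 1.28 times the flank in MT and 3.8 times in MB. A call therefore does not show that reads above the flank level moved along the member.

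In 476 of the 527 the myotube ratio was closer to even than the myoblast ratio, and in 100 every MT library favoured one side and every MB library the other. Over all 1899 called stretches these counts were 1754 and 261, so a ratio closer to even was general and not particular to the members. Over all members the median size of the log2 ratio was 0.18 in MT and 0.32 in MB. The members held a smaller share of reads above the flank level in MT than in MB, and its part in this was not tested.

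With the flank level subtracted, the myotube excess still leaned to the side that was denser in myoblasts. The denser side was chosen on the pooled MB libraries. It held 52.3%, 50.8% and 51.8% of the reads of MT replicates 1 to 3 over all members, and 58.9%, 55.1% and 57.8% of their reads above the flank level, a mean of 57.2% ± 1.97 (SD, n = 3). When the side was chosen on MB replicate 1, MB replicates 2 and 3 had 57.7% and 57.0% of reads and 60.4% and 60.0% of reads above the flank on it. When it was chosen on MT replicate 1, MT replicates 2 and 3 had 56.4% and 57.5% of reads above the flank on it. All 3 MT libraries had more reads on the side favoured in myoblasts in 604 members (26.8%), and on the opposite side in 217 (9.63%). In the stretches with a myotube peak these counts were 766 (31.7%) and 194 (8.02%). Their MT share of reads above the flank on the denser side was 60.9%, 51.0% and 60.7% in MT replicates 1 to 3, a mean of 57.5% ± 5.67 (SD, n = 3). In MT replicates 1 and 3 the lean was thus not particular to the members. In MT replicate 2 the stretches with a myotube peak were close to even, and the members leaned more.

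The 5 members with the lowest p in this test were all 30 kb or longer, and in each the MB libraries all favoured the same side. In 3 of them the MT libraries lay on either side of even. At chr6:83864943-83906530 (41.6 kb), which also had 1 of the 5 lowest ratios of MT to MB, the left side had 0.547 ± 0.122 RPKM in MT and 6.38 ± 1.44 RPKM in MB (SD, n = 3). Its right side had 0.525 ± 0.112 RPKM in MT and 1.93 ± 0.408 RPKM in MB. The log2 ratio of left to right was -0.21, -0.10 and 0.47 in MT and 1.78, 1.69 and 1.69 in MB (weighted difference -1.59, SE 0.14, limma adjusted p = 1.244e-08). The MB libraries all favoured the left side by a similar ratio and the MT libraries were on either side of even.

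The mirror image was at chr6:47504280-47544168 (39.9 kb). Its left side had 0.593 ± 0.0595 RPKM in MT and 2.07 ± 0.333 RPKM in MB, and its right side 0.536 ± 0.0957 RPKM in MT and 5.18 ± 0.990 RPKM in MB (difference in log2 ratio 1.48, SE 0.14, limma adjusted p = 2.298e-08). Here the MB libraries favoured the right side.

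In a pair of members all 3 MT libraries had more reads on the side that held fewer in the MB libraries. The sides were close in MT, with 0.501 ± 0.0305 RPKM on the left and 0.609 ± 0.0661 RPKM on the right of the first (SD, n = 3). Over all members, all 3 MT libraries lay opposite to the pooled MB libraries in 217 (9.63%). At chr11:23157568-23197776 (40.2 kb), the log2 ratio of left to right was -0.34, -0.20 and -0.30 in MT and 1.14, 0.90 and 1.17 in MB (difference -1.35, SE 0.14, limma adjusted p = 7.667e-08). At chr13:73605946-73636645 (30.7 kb), it was -0.61, -0.14 and -0.25 in MT and 0.99, 1.02 and 1.08 in MB (difference -1.35, SE 0.14, limma adjusted p = 1.112e-07). On the chromosome 13 member the right side had 0.690 ± 0.0630 RPKM in MT and 1.69 ± 0.189 RPKM in MB, and the left side 0.550 ± 0.0832 RPKM in MT and 3.47 ± 0.479 RPKM in MB. The fifth, at chr11:6447573-6493116 (45.5 kb), had a difference of -1.09 (SE 0.12, limma adjusted p = 4.148e-07).

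**Figure D5:**
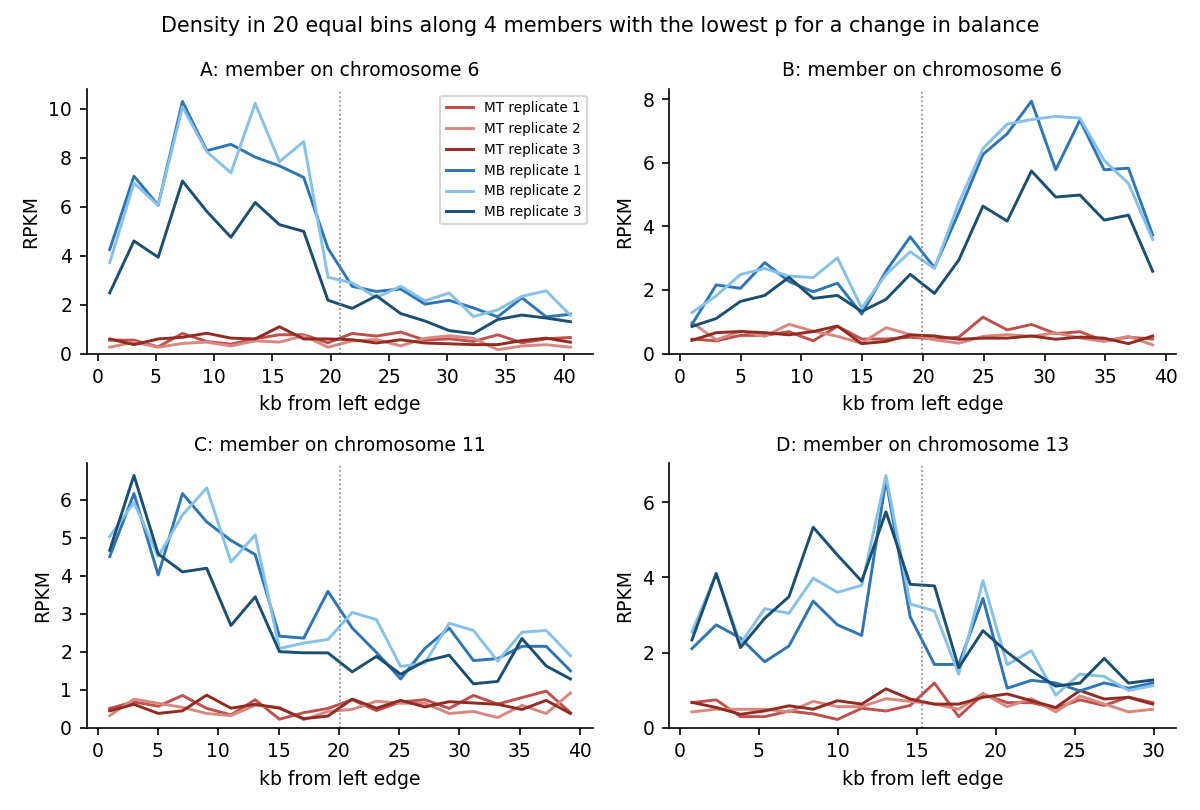
Read density (RPKM, vertical axis) in 20 equal bins against the distance from the left edge in kb, for each MT and MB library, in the 4 members with the lowest p in the balance test: A and B on chromosome 6 (41.6 and 39.9 kb), C on chromosome 11 (40.2 kb) and D on chromosome 13 (30.7 kb). The dotted line is the middle of the member. The MB lines are high on one side and low on the other, and the MT lines are low along the whole member.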

How the data were processed

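Each deposited library file lists where a read mapped (chromosome, position, strand), and the authors deposited 1 peak list for each group, without scores, on mm9 per the submitters' processing notes. Which aligner, read filters, peak caller or control were used is not given in the sources at hand. No line was repeated within a library (0 repeats), so each position and strand is listed at most once; in myoblast peaks of the members 0.284% to 2.09% of positions and strands held a read. How far unlisted repeats at positions preferred by MNase lower the densest regions was not tested. Input and spike-in libraries were not used here, so all values are relative to the reads of the same library.

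Reads were counted per region from their listed positions and scaled by all reads on chromosomes 1 to 19 and X (RPKM). Flanks needed 5 kb of sequence. Peak-free windows needed 10 reads on average per library. Background scaling used reads more than 1000 bp from any peak. Start positions are given as the listed left boundary plus 1. The members, lists and tests were chosen with earlier results of these data known. The balance test used limma 3.58.1 in R 4.3.3 on log2((left + 0.5)/(right + 0.5)) with weights from the counts, at least 20 reads per side and group and an adjusted p under 0.05. It was tested on simulated data before use. Named members were the 5 lowest and 5 highest in log2 MT over MB with at least 50 reads on average, the 5 densest in MB, the 3 highest and 3 lowest in MT over flank with 10 kb of flank, the 5 with the lowest p in the balance test, and those at the length limits. Counting and figures used NumPy 2.4.6, pandas 2.3.3 and matplotlib 3.10.9 under Python 3.11.15, and the permutation test SciPy 1.17.1.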

Additional observations from a re-analysis of the deposited data

Results flagged for a closer look

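In 5 members the balance of all reads between the left and right side differed between the groups by a test of the difference itself (limma, adjusted p of 4.148e-07 or lower), though the lack of myotube peaks that chose the members also limits how uneven their myotube reads can be. The 5 were picked for the lowest p in this test. The test and its alternatives did not subtract the flank level, so they do not show that reads above that level moved along a member. The MT minus MB difference in the log2 ratio of left to right was -1.59 at chr6:83864943-83906530, 1.48 at chr6:47504280-47544168, -1.354 at chr11:23157568-23197776, -1.349 at chr13:73605946-73636645, and -1.09 at chr11:6447573-6493116. All 5 kept their direction and an adjusted p under 0.05 with each library left out, the replicate block, equal weights, 1 in place of 0.5 added, no floor, the outer parts alone and equal depth.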

How the results depend on the processing

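Every ratio kept its side of 1 and every log2 value its sign under all alternatives run on it. Background scaling gave a median log2 MT over MB of -2.305 in place of -1.638. Joining gaps of up to 2000 bp gave 2047 members, a median of -1.777 and an MB density over the flank of 4.20; gaps of up to 5000 bp gave 2271 members and -1.502. Requiring no myotube peak within 5 kb left 2066 members with an MT ratio of 1.28. Flanks of 1 to 50 kb gave 4.317 in MB. Shifting positions by 75 bp toward the nucleosome centre gave peaks over gaps of 1.549 in MT and 2.299 in MB. With 1 library left out, the median log2 ratio was -1.698 to -1.566 and the MT density over the flank 1.243 to 1.324. Peaks over gaps in MT were then 1.607 to 1.643, and the MT share above the flank on the denser side 56.4% to 58.3%. The balance test then called 324 members (without MT replicate 3) to 558. The replicate block called 502 members and 1836 of all stretches, against 527 and 1899. Deviations of same-numbered libraries in the log2 ratio of left to right were correlated by 0.0527, -0.0214 and 0.0265. These deviations cover the balance alone and rest on few MT reads, so they cannot show whether same-numbered libraries were paired. The flank-subtracted share and the balance test at equal depth (491 members) were chosen after seeing the data. Counting error limits single members in myotubes most, with a median of 75 reads in MT replicate 2.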

Other observations

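Inside the members, the most frequent distance from a plus-strand read to a downstream minus-strand read was 107, 104 and 102 bp in MT replicates 1 to 3 and 105, 110 and 104 bp in MB replicates 1 to 3. The means were 104 ± 2.52 bp in MT and 106 ± 3.21 bp in MB (SD, n = 3). A two-sided exact permutation test gave p = 0.6, where 3 against 3 libraries cannot go below 0.1. At that distance read pairs were 1.45, 1.48 and 1.46 times as frequent as between 300 and 900 bp in MT, and 1.34, 1.36 and 1.36 times in MB. No further maximum at a nucleosome spacing stood out between 220 and 900 bp, where the curves stayed between 0.959 and 1.08 of their mean, so the planned spacing between nucleosomes was not obtained for the members.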
